A study of Mus musculus with 2 samples.

Results

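Kinesins are the microtubule motors of animal cells, and their genes were taken here as every symbol beginning with Kif or Kifc followed by a digit in either of the 2 count tables of the study. The search found 37 genes of 15574 in all, of which 37 had reads in the library labelled CREB KO and 35 in the wildtype library. The RNA came from mouse Th17 cultures, in which CD4 T cells learn to secrete IL-17 cytokines. Naive T cells of the C57BL/6 background, with the genotype CREB KO or wildtype, were cultured for 6 days with IL6, TGFb, IL1b and IL23, the medium shared by both genotypes. Both cultures were then stimulated for 4 h on plate-bound CD3 before RNA was extracted. CREB, the product of Creb1, binds DNA and turns on genes in answer to cyclic AMP. The sources used here do not give how the gene was removed, the age of the mice or whether animals were pooled.

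There was 1 library per genotype, with 23.9 M reads assigned to genes in the library labelled CREB KO and 26.5 M in the wildtype library. No p-value can be formed from 1 library per group, and each difference below lies between these libraries, not between genotypes. Ratios are given with a 95% interval (exact conditional binomial) that covers counting error only and holds no spread between animals or cultures. It treats reads as independent, so PCR copies, which cannot be removed without molecular identifiers, make it too narrow. Creb1 had 25 reads in the library labelled CREB KO and 13 in the wildtype library, too few to count as measured by the limit used below. These counts show no loss of Creb1 reads. Since how the gene was removed is not given, they cannot check the label. Both libraries held the transcripts that define Th17 cells, with 6981 Il17a reads in the library labelled CREB KO against 13093 in the wildtype library and 19552 against 23125 Cd4 reads. Most markers of myeloid, B, NK and stromal cells were low, with at most 26 reads, for Cd79a, and Lyz2, Itgam, Ms4a1, Ncr1 and Pdgfrb were not listed in either table. The exception was the myeloid marker Cd68, with 196 reads in the library labelled CREB KO and 243 in the wildtype library. Its mean level was close to that of Kif7 below. Foxj1 and Epcam, which mark ciliated and other epithelia, had 97 and 60 reads in the library labelled CREB KO against 90 and 54 in the wildtype library. Cd8b1, of CD8 T cells, had 234 reads in the library labelled CREB KO and 237 in the wildtype library, and Cd8a was not listed. The part of cells other than Th17 cells in the results below was not tested.

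A kinesin couples the splitting of ATP in its motor domain to steps along a microtubule or, in some members, to taking microtubule ends apart. Mitotic kinesins build the spindle, move chromosomes and close the cleavage furrow, and their genes are switched on late in the cell cycle. Transport kinesins carry vesicles, endosomes and mitochondria in cells at any stage, and T cells also use microtubules to turn the centrosome towards the cell they recognise. A further group works at centrioles and cilia. Kif7 belongs to it: at the tip of the primary cilium it organises the Gli transcription factors of the Hedgehog pathway, which it both restrains and promotes. Lymphocytes do not build a primary cilium, although T cells express components of ciliary transport and of the Hedgehog pathway.

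Mitotic and transport motors made up nearly all kinesin reads, and the ratio farthest from 1 among the measured members was that of the ciliary gene Kif7. The 13 mitotic genes took 58.6% of kinesin reads in the library labelled CREB KO (exact binomial 95% interval 58.2 to 59.0) and 60.2% in the wildtype library (59.8 to 60.6). The 16 transport genes took 40.0% (39.6 to 40.4) in the library labelled CREB KO and 38.3% (37.9 to 38.7) in the wildtype library. Ciliary genes held 1.21% (1.11 to 1.30) in the library labelled CREB KO and 1.34% (1.25 to 1.44) in the wildtype library. The mitotic share was thus the smaller and the transport share the larger in the library labelled CREB KO, each by under 2 percentage points. In bulk RNA, fewer dividing cells and less mitotic RNA per cell cannot be told apart.

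Of the 37 genes, 30 reached a mean of 1 CPM (reads of the gene per M reads of the scaled library) and are called measured. The other 7 had at most 17 reads in either library. A gene was called apart if it differed by 1.5-fold or more and its interval excluded 1. By that rule 1 measured kinesin, Kif7, was lower in the library labelled CREB KO, or 3.33% of 30, against a background of 1.5% of all 10462 measured genes. Another, the minus-end-directed motor gene Kifc3, was higher, again 3.33%, against a background of 2.48%. Kifc3 reached a mean of 1 CPM only through the library labelled CREB KO, where it was higher. The other 28 were neither. At 1 gene each way, the shares are near the background, and the median log2 ratio of the 30 kinesins, 0.01, was close to the median of all measured genes, -0.01.

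**Figure D1:**
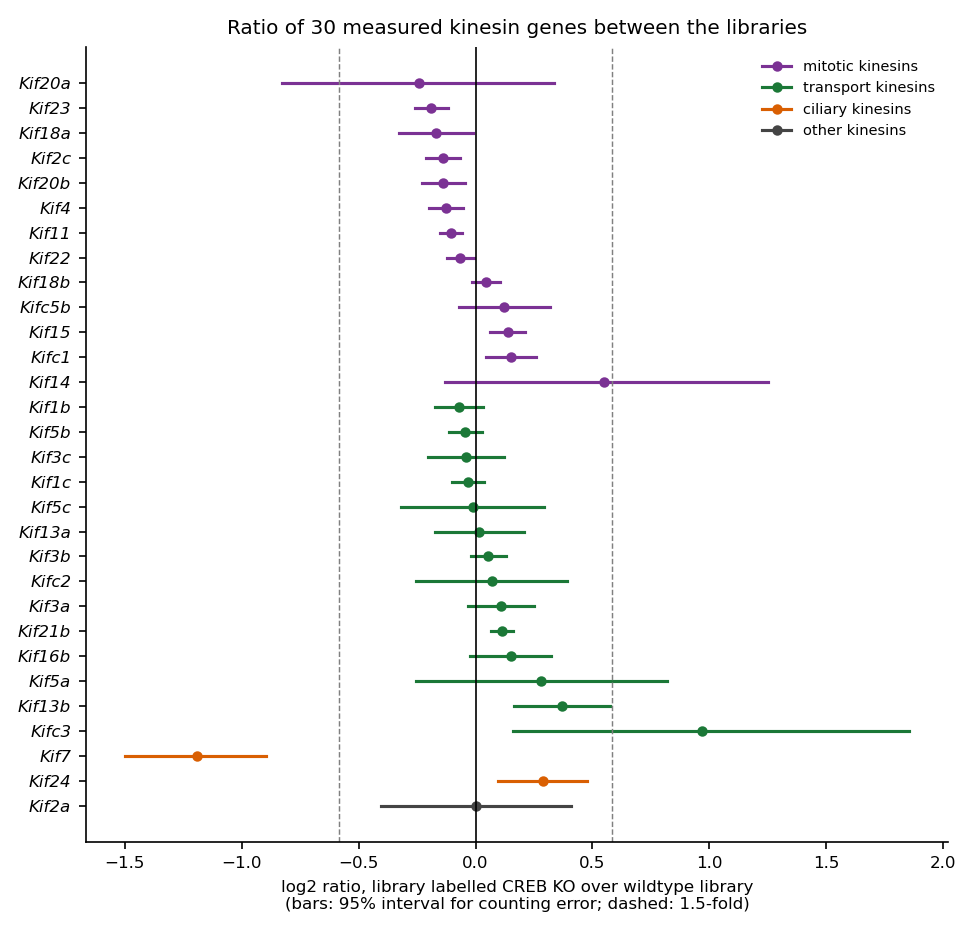
Log2 ratio of each of the 30 measured kinesin genes (library labelled CREB KO over wildtype library, 1 library each), grouped and coloured by class, with bars for the 95% counting interval and dashed lines at 1.5-fold. Kif7 lies at -1.19, with its whole bar beyond the dashed line, while most mitotic points lie just left of 0 and most transport points at or just right of it.

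Kif7 (chromosome 7, 79698098 to 79715720, minus strand, GRCm38) had 130 reads in the library labelled CREB KO and 328 in the wildtype library. Scaled to library size, its level was 5.42 CPM in the library labelled CREB KO and 12.4 CPM in the wildtype library, which is 2.28-fold lower (1.86 to 2.83) in the library labelled CREB KO. It had the 22nd lowest ratio of the 10462 measured genes and the 2nd lowest of the 2208 with a mean level of 5 to 20 CPM. In that range of levels, 1.09% of genes were called lower. At a stricter limit of 2-fold, which Kif7 also passed, 0.44% of all measured genes were lower. The nearest relatives of Kif7 in the kinesin-4 family were far closer to a ratio of 1. Kif4, a chromosome-bound motor, had a ratio of 0.917 (0.872 to 0.965), and Kif21b, which limits microtubule growth, had one of 1.08 (1.05 to 1.12). Kif27, the closest paralog of Kif7, had 4 reads in the library labelled CREB KO and 4 in the wildtype library, too few for a ratio.

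The surroundings of Kif7 were checked because reads of overlapping genes cannot be told apart when the strand setting of the counting is not given. The last 51 bases of Kif7 exons overlap Ticrr, a replication factor gene on the opposite strand, which had 2441 reads in the library labelled CREB KO and 2565 in the wildtype library, a ratio of 1.05 (0.992 to 1.11). A noncoding gene on the opposite strand, 9330171B17Rik, covers 877 of the 4581 exon bases of Kif7, or 19.1%, and was not listed in either table. The other listed genes within 150000 bases, Pex11a, Wdr93, Mesp2 and Anpep, were all under 1 CPM.

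The promoter of Kif7 is shown because CREB binds the cyclic AMP response element, TGACGTCA, and its shorter core, TGACG, and the window holds 1 match to the core. The sequence is RefSeq's for build GRCm38.p6 and runs from 250 bases before to 50 bases after the annotated start, with the match in capitals.
Kif7 (chr7:79715658-79715957, minus strand): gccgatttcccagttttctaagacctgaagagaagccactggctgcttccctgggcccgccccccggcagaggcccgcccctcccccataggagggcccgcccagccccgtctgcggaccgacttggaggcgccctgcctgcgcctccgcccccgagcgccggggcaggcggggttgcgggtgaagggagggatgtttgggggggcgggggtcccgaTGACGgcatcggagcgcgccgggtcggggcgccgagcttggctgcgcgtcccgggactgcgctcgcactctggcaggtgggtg
The match begins 33 bases before the start. Searched on both strands, TGACG lies in 20.8% of all 32851 promoter windows and in 32.7% of the 9717 windows of measured genes, while the full TGACGTCA, which contains it, lies in 1.79% and 3.33%. Windows were found for 30 of the 37 kinesin genes, 34 windows in all. The core was found in 7 of 12 mitotic windows and 7 of 12 transport windows. The full element was found in the windows of Kif18a, Kif5c and Kif17. Kif18a had a ratio of 0.889 (0.796 to 0.992) and Kif5c one of 0.991 (0.801 to 1.23), while Kif17 had too few reads for a ratio. A match describes the letters and is no evidence of binding.

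Around Kif7, Hedgehog pathway genes were higher or close to 1 and none was lower by the same rule. Of 6 measured genes of the pathway, 3 were called higher in the library labelled CREB KO, against the background of 2.48% of all measured genes. Of these, Gli1 and Sufu had means of 2.51 and 1.67 CPM, and Ptch1 one of 19.9 CPM. At 10 CPM or more, 0.319% of all genes were higher, so 2.48% understates the background at levels as low as those of Gli1 and Sufu. Gli1, a transcription factor of the pathway and itself a Hedgehog target, had 78 reads in the library labelled CREB KO and 47 in the wildtype library and was 1.82-fold higher (1.26 to 2.69). Ptch1, the Hedgehog receptor and also a target, had 583 reads in the library labelled CREB KO and 410 in the wildtype library and was 1.57-fold higher (1.38 to 1.78). Sufu, which holds Gli proteins back, had 51 reads in the library labelled CREB KO and 32 in the wildtype library and was 1.74-fold higher (1.11 to 2.82). The kinase gene Stk36 had 37 reads in the library labelled CREB KO and 26 in the wildtype library, a ratio of 1.56 with an interval that includes 1 (0.925 to 2.70). The signal transducer Smo, at 0.988 (0.912 to 1.07), and the transcription factor Gli3, at 1.01 (0.757 to 1.36), were close to 1. The ligand genes Dhh and Ihh had at most 10 reads in either library, and Shh and Gli2 were not listed. Any link between the ratios of these genes and that of Kif7 was not tested.

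Intraflagellar transport genes, whose products move cargo along cilia, were mostly within 1.2-fold. Of 13 measured genes of intraflagellar transport and its dynein motor, 1 was lower, against the background of 1.5%, and none was higher. The 1 lower gene had a mean of 1.16 CPM. It reached a mean of 1 CPM only through the wildtype library, where it was higher. At 10 CPM or more, 0.236% of all genes were lower, so 1.5% understates the background at such low levels. The lower gene was Dync2li1, a light intermediate chain of that dynein, with 16 reads in the library labelled CREB KO and 44 in the wildtype library, or 2.45-fold lower (1.38 to 4.74). Its heavy chain gene Dync2h1 had a ratio of 0.830 (0.695 to 0.988), Ift52 one of 0.852 (0.778 to 0.934) and Ift27 one of 1.13 (1.03 to 1.23). Over all 19 measured genes of the Hedgehog and intraflagellar transport list, the median log2 ratio was 0.07. Kif7 thus had a lower ratio than 18 of the 19, Dync2li1 being the exception.

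**Figure D2:**
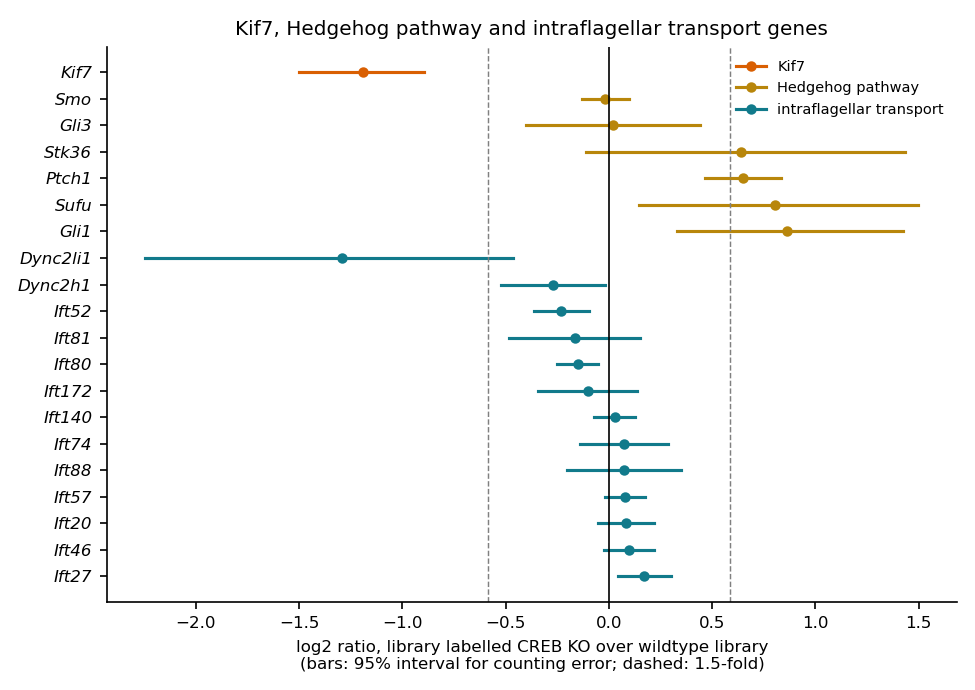
Log2 ratio (library labelled CREB KO over wildtype library, 1 library each) of Kif7, of the 6 measured Hedgehog pathway genes and of the 13 measured intraflagellar transport and dynein genes, with bars for the 95% counting interval and dashed lines at 1.5-fold. Kif7 at -1.19 and Dync2li1 at -1.29 lie to the left, and Gli1, Sufu and Ptch1 lie to the right at 0.86, 0.80 and 0.65.

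The remaining ciliary kinesins went another way or were hardly read. Kif24, a centriolar motor that takes microtubules apart and restrains the growth of cilia, had 486 reads in the library labelled CREB KO and 439 in the wildtype library. Its ratio of 1.22 (1.07 to 1.39) lies above 1 and is opposite to that of Kif7. Kif9, a motor of motile cilia, had 11 reads in the library labelled CREB KO and 17 in the wildtype library, and Kif6 had 2 against 0. For a gene with no reads in the wildtype library, 3 reads, or 0.113 CPM, is the level that the depth still allows. Kif19a was not listed in either table.

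Mitotic kinesins lay on both sides of a ratio of 1, more of them below it, and none was called apart. Of 13 measured genes, 8 had a ratio below 1 and 5 above, while 51.9% of all measured genes lay below 1. The median log2 ratio was -0.10, against -0.01 over all measured genes. The whole interval lay below 1 for 7 of the 13 and above 1 for 2, against a background of 19.5% below and 16.2% above. Since deeply read genes have narrow intervals, the count was repeated at a mean of 20 CPM or more, where 7 of 10 mitotic kinesins lay below 1 and 2 above, against 26.1% and 19.1% of 6019 genes. Added together, mitotic kinesins had 30772 reads in the library labelled CREB KO and 35345 in the wildtype library, a ratio of 0.960 (0.945 to 0.974).

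Motors of the early spindle went both ways. Kif11, also called Eg5, which pushes the spindle poles apart, had the most reads of the class, 6159 in the library labelled CREB KO and 7300 in the wildtype library, a ratio of 0.930 (0.899 to 0.962). Kif15 can stand in for Kif11 in keeping the spindle bipolar, and its 2915 reads in the library labelled CREB KO against 2919 in the deeper wildtype library give a ratio of 1.10 (1.05 to 1.16). These functionally related motors thus lay on opposite sides of 1, each outside its counting error. Kifc1, a minus-end-directed motor that gathers the poles, had 1444 reads in the library labelled CREB KO and 1434 in the wildtype library, a ratio of 1.11 (1.03 to 1.19). Its near-copy Kifc5b had 434 reads in the library labelled CREB KO and 439 in the wildtype library, with a ratio of 1.09 (0.952 to 1.25). In GENCODE transcripts, 38.6% of the 50-base stretches of Kifc1 also occur in Kifc5b, so how their reads were divided is uncertain.

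Motors that act on chromosomes and kinetochores were a little lower or level. Kif22, which pushes chromosome arms to the spindle equator, had 4366 reads in the library labelled CREB KO and 5033 in the wildtype library, a ratio of 0.956 (0.918 to 0.996). Kif2c, or MCAK, which takes microtubules apart at the centromere, had 2842 reads in the library labelled CREB KO and 3449 in the wildtype library, a ratio of 0.908 (0.864 to 0.955). The chromosome-bound Kif4 had 2779 reads in the library labelled CREB KO and 3340 in the wildtype library. All 3 intervals lie below 1 and within 1.2-fold. Of the kinesin-8 pair, Kif18a, which damps chromosome swings at metaphase, had 592 reads in the library labelled CREB KO and 734 in the wildtype library, while Kif18b, which sets the length of astral microtubules, had 4361 against 4663 and a ratio of 1.03 (0.989 to 1.07).

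Cytokinesis motors included the lowest ratio of any kinesin with a mean of 20 CPM or more. Kif23, the motor subunit of the centralspindlin complex of the midzone, had 3028 reads in the library labelled CREB KO and 3803 in the wildtype library, a ratio of 0.878 (0.836 to 0.921). Kif20b, a motor of the late midzone, had 1762 reads in the library labelled CREB KO and 2138 in the wildtype library, a ratio of 0.908 (0.852 to 0.968). Kif20a, which brings the Aurora B complex to the midzone, was thinly read, with 46 reads in the library labelled CREB KO and 60 in the wildtype library. Kif14, a midbody motor, had 44 reads in the library labelled CREB KO and 33 in the wildtype library, a ratio of 1.46 with an interval that includes 1 (0.915 to 2.38). For these 2 genes the counts leave either direction possible.

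Spindle genes that are no kinesins of the search gave similar small ratios. Of 24 measured genes, 19 had a ratio below 1, 10 had an interval below 1 and 1 above, none was called apart, and the median log2 ratio was -0.06. For comparison, 51.9% of all measured genes lay below 1, with the whole interval below 1 in 19.5% and above it in 16.2%, while 26.1% and 19.1% had such intervals at a mean of 20 CPM or more. Cenpe, the kinetochore kinesin whose symbol lies outside the search, had 3086 reads in the library labelled CREB KO and 3598 in the wildtype library, a ratio of 0.945 (0.901 to 0.992). Hmmr, at 0.872 (0.836 to 0.910), the mitotic cyclin gene Ccnb1, at 0.883 (0.850 to 0.917), and the checkpoint kinase gene Bub1b, at 0.918 (0.880 to 0.959), were among the lower ones. Numa1, which anchors spindle poles, was the 1 gene with an interval above 1, at 1.10 (1.07 to 1.14). The proliferation markers Top2a and Mki67 had ratios of 0.958 (0.941 to 0.974) and 0.934 (0.917 to 0.951), so these cell cycle genes also lay below 1, and the part of a difference in cycling in the kinesin ratios was not tested.

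What the mitotic genes also share is a promoter element that the search did not use. The cell cycle genes homology region (CHR), TTTGAA, is the site through which the DREAM and MuvB complexes time late cell cycle genes in mammals. It was found on either strand in 11 of the 12 mitotic windows, in 1 of 12 transport windows (Kif1a) and, for comparison, in 17.9% of all 32851 windows and 11.5% of the 9717 windows of measured genes. Within 30 bases of the start, a distance chosen after the matches were seen, it was found in 9 of 12 mitotic windows and 0 of 12 transport windows, against 3.14% of all windows and 2.06% of those of measured genes. Kif18a was the 1 mitotic gene whose window held none. The windows are not all independent, since the near-copies Kifc1 and Kifc5b count separately and the 12 transport windows come from 10 genes. The stretches of 60 bases below come from genes with a match near the start, with the CHR letters or their reverse complement TTCAAA in capitals, from RefSeq on GRCm38.p6. Kifc1 and Kifc5b are shown together because the bases around the element are nearly the same in both.
Kif11 (chr19:37376336-37376395, plus strand): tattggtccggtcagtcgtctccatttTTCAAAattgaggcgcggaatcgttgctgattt
Kif18b (chr11:102925089-102925148, minus strand): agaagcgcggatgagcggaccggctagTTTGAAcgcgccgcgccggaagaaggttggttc
Kif22 (chr7:127042405-127042464, minus strand): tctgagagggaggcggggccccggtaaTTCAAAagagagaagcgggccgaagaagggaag
Kif23 (chr9:61946765-61946824, minus strand): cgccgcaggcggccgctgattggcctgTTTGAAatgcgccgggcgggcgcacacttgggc
Kif4 (chrX:100626055-100626114, plus strand): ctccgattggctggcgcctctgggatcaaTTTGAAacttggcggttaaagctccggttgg
Kifc1 (chr17:33890600-33890659, minus strand): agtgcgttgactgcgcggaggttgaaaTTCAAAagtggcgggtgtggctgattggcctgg
Kifc5b (chr17:26917081-26917140, plus strand): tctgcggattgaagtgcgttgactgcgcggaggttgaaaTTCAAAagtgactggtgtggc
Genes with the element lay on both sides of a ratio of 1: Kif23 at 0.878, Kif18b at 1.03 and Kif15 at 1.10. The CCAAT box, which often lies upstream of the CHR, was found in 8 of 12 mitotic windows and 4 of 12 transport windows, against 37.4% of all windows.

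Transport kinesins lay mostly close to a ratio of 1, more of them above it, and Kifc3 alone was called apart. Of 14 measured genes, 5 had a ratio below 1 and 9 above, while 51.9% of all measured genes lay below 1. The median log2 ratio was 0.06. None had an interval below 1, and 3 had one above, against a background of 19.5% below and 16.2% above. At a mean of 20 CPM or more, 0 of 8 lay below 1 and 1 above, against the 26.1% and 19.1% of all genes at that level. Summed, they had 21020 reads in the library labelled CREB KO and 22481 in the wildtype library, a ratio of 1.03 (1.01 to 1.05), whose interval does not meet that of the summed mitotic reads. The sum leans on Kif21b, at a ratio of 1.08 (1.05 to 1.12). This gene gave 7092 of the summed reads in the library labelled CREB KO and 7233 in the wildtype library. Over the genes with 1 curated RefSeq transcript, however, the medians of the classes came together, at -0.01 for 10 mitotic and -0.01 for 7 transport genes. The contrast of the medians thus depends on which members are kept.

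Kif21b carried the most reads of any transport kinesin. It slows microtubule growth and, in a human T cell line, is needed for the centrosome to turn to the synapse. It had 7092 reads in the library labelled CREB KO and 7233 in the wildtype library, a ratio of 1.08 (1.05 to 1.12). The general cargo motor Kif5b had 3202 reads in the library labelled CREB KO and 3636 in the wildtype library, a ratio of 0.971 (0.925 to 1.02). Kif5b made up 93.2% of the reads of its kinesin-1 family in the library labelled CREB KO and 93.6% in the wildtype library, with Kif5a and Kif5c, better known from neurons, making up the rest. Kif1c, a vesicle motor, had 3245 reads in the library labelled CREB KO and 3653 in the wildtype library, and Kif1b, which carries mitochondria and vesicle precursors, had 1441 against 1669. Their intervals, 0.934 to 1.03 and 0.886 to 1.02, include 1.

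The subunits of the kinesin-2 motor, which drives outward transport in cilia and carries other cargo elsewhere, lay on both sides of 1. Kif3b had 2798 reads in the library labelled CREB KO and 2970 in the wildtype library, a ratio of 1.04 (0.986 to 1.09). Kif3a had 804 reads in the library labelled CREB KO and 822 in the wildtype library, a ratio of 1.08 (0.977 to 1.19). Their shared adaptor Kifap3 was the 1 member of the light chain and adaptor list with an interval below 1, at 0.860 (0.768 to 0.962) on 556 reads in the library labelled CREB KO and 713 in the wildtype library. Kif3c, a kinesin-2 subunit that can pair with Kif3a in place of Kif3b, had 582 reads in the library labelled CREB KO and 660 in the wildtype library, a ratio of 0.972 (0.868 to 1.09). Kif17, a further kinesin-2 motor of cilia and dendrites, had at most 3 reads. None of the 8 measured light chain and adaptor genes was called apart, against the same background of 1.5% lower and 2.48% higher, and their median log2 ratio was -0.02.

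Of the endosomal motors, only Kif13b had an interval above 1. This motor, also known as GAKIN, binds the scaffold Dlg1 and had 424 reads in the library labelled CREB KO and 362 in the wildtype library, a ratio of 1.29 (1.12 to 1.49). Kif16b, a motor of early endosomes, had 558 reads in the library labelled CREB KO and 554 in the wildtype library, a ratio of 1.11 with an interval that includes 1 (0.985 to 1.25). Kif13a, of recycling endosomes, was at 1.01 (0.886 to 1.15). Kifc2, a minus-end-directed motor, had 157 reads in the library labelled CREB KO and 165 in the wildtype library, a ratio of 1.05 (0.837 to 1.31). Kifc3, the gene called higher, had 36 reads in the library labelled CREB KO and 20 in the wildtype library, 1.96-fold higher (1.12 to 3.62). With so few reads, the size of the Kifc3 difference is uncertain. Cytoplasmic dynein, also a minus-end-directed motor, had 0 of 19 measured genes called apart, against a background of 1.5% lower and 2.48% higher. Its heavy chain gene Dync1h1 was at 1.11 (1.08 to 1.14), and the median log2 ratio of the 19 was 0.03.

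**Figure D3:**
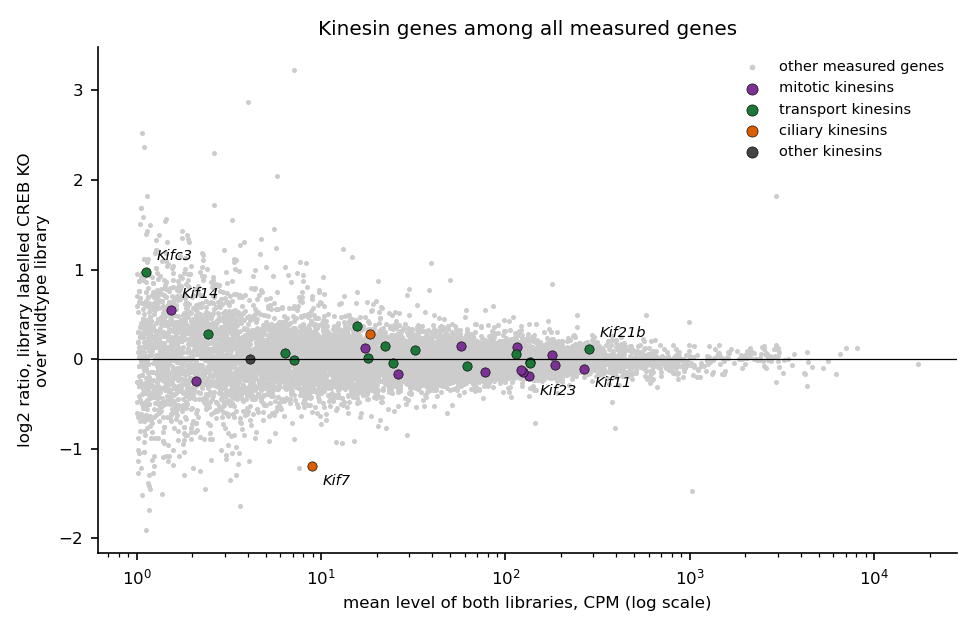
Log2 ratio (library labelled CREB KO over wildtype library, 1 library each) against mean level in CPM (log scale) for all 10462 measured genes, with the 30 measured kinesins coloured by class. Kif7, at a mean of 8.91 CPM and -1.19, lies at the lower edge of the cloud, while the deeply read Kif11, Kif23 and Kif21b lie at -0.10, -0.19 and 0.11.

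Levels were compared between genes per length, as CPM per kilobase of exon (GENCODE M21), which is a level and not a difference. Mitotic genes stood higher as a class, with a median of 16.0 CPM per kilobase in the library labelled CREB KO and 15.9 in the wildtype library. Transport genes had a median of 2.92 in the library labelled CREB KO and 2.84 in the wildtype library. Of the 13 kinesins at 10 CPM per kilobase or more, 9 were mitotic and 4 transport. The order began with Kif18b, at 50.9 in the library labelled CREB KO and 49.3 in the wildtype library. Next came Kif22, at 37.1 in the library labelled CREB KO and 38.8 in the wildtype library. Kif11 followed at 34.4 in the library labelled CREB KO and 37.0 in the wildtype library. With 1 library each, the order of such close neighbours has no replicate check. The highest transport gene, Kif21b, had 24.3 CPM per kilobase in the library labelled CREB KO and 22.4 in the wildtype library, and Kif3b had 20.7 against 19.9.

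**Figure D4:**
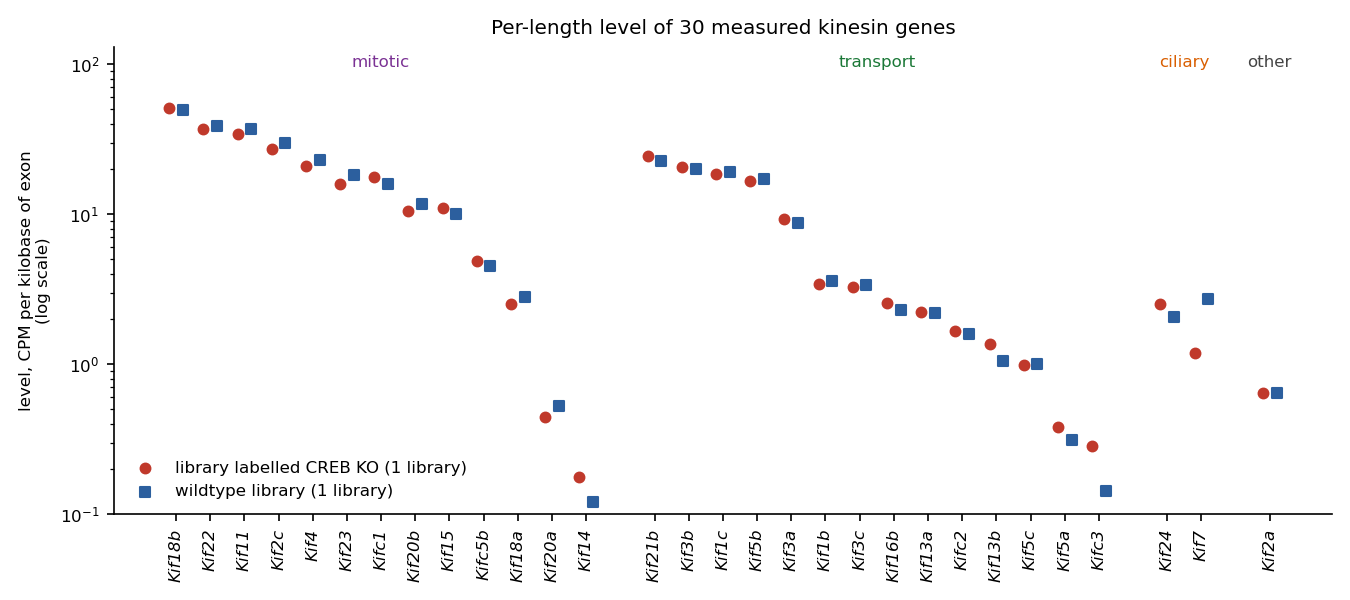
Level of the 30 measured kinesin genes in CPM per kilobase of exon (log scale), by class and in falling order within each, with a red circle for the library labelled CREB KO and a blue square for the wildtype library (1 library each). Circle and square lie close together for most genes, and Kif7 and Kifc3 show the widest gaps.

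Kif7 was in the lower part of this order. Its level was 1.18 CPM per kilobase in the library labelled CREB KO and 2.71 in the wildtype library, while that of Kif24 was 2.53 in the library labelled CREB KO and 2.07 in the wildtype library. Kif24 therefore stood above Kif7 in the library labelled CREB KO and below it in the wildtype library. Kif2a, a microtubule depolymerase of neurons and spindles, was at 0.645 CPM per kilobase in the library labelled CREB KO and 0.644 in the wildtype library, on 99 reads against 109. Kif26a and Kif26b, atypical kinesins, had at most 6 reads, and Kif1a, a motor of synaptic vesicle precursors, had 10 in the library labelled CREB KO and 15 in the wildtype library. Kif2b, Kif12 and Kif21a were not listed in either table.

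A few mitotic levels were far below those of their partners. Kif20a was at 0.442 CPM per kilobase in the library labelled CREB KO and 0.523 in the wildtype library, and Kif14 at 0.177 against 0.120. Kif23, which acts beside them, was at 16.0 in the library labelled CREB KO and 18.2 in the wildtype library. The spindle genes outside the search showed the same split. Of those 25 genes, 5 (Prc1, Racgap1, Ect2, Tpx2 and Bub1) were under 1 CPM per kilobase, and all 5 had 2 or more curated RefSeq transcripts, as 10 of the 25 did. Kinesins with 2 or more curated transcripts had a median of 1.13 CPM per kilobase over 16 genes, against 4.69 over the 21 with 1. In all genes the medians were 1.07 over the 6225 with 2 or more and 2.57 over the 8253 with 1. Kif20a has 3 such transcripts and shares 29.3% of its exon bases with Cdc23 on the opposite strand, while Kif14 has 1. Kif7 has 2. The part of transcript number and gene overlap in these levels was not tested.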

How the data were processed

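Poly(A)-enriched RNA from 1 library per genotype was sequenced, and the authors deposited raw read counts per gene, which are whole numbers without normalization. Per the submitters' processing notes, the tools included HTSeq and bcl2fastq, with build mm10. The sources used here do not give the annotation or the strand setting. A gene missing from 1 table was given 0 reads.

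Library sizes were scaled by TMM (edgeR 4.0.16, R 4.3.3). Ratios used a prior count of 0.5, and intervals are exact conditional binomial (95%). A gene counts as measured at a mean level of at least 1 CPM. A call needed a 1.5-fold difference and an interval excluding 1. The script was checked on simulated data. Every member was named. Alternatives were total counts, DESeq2 1.42.0 size factors, upper quartile, other filters, priors and fold limits, thinning, and coding length. Exon lengths and overlaps came from GENCODE M21 and promoters from RefSeq GRCm38.p6. The members and lists were chosen with earlier results of these data known. At a depth of 23.9 M reads in the library labelled CREB KO and 26.5 M in the wildtype library, 3 reads are 0.125 CPM in the library labelled CREB KO and 0.113 CPM in the wildtype library.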

Additional observations from a re-analysis of the deposited data

How the results depend on the processing

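No paired analysis was possible because there was 1 library per genotype and the labels carry no replicate numbers. For the same reason no library could be left out. The log2 ratio of Kif7 stayed between -1.23, with the deeper library thinned, and -1.17, with a prior count of 5. All 185 member ratios recomputed under another scaling, prior or depth stayed inside the counting interval. That outcome was largely set in advance, since every scaling factor lay between 0.997 and 1.003 and thinly read members have wide intervals. It does not measure spread between libraries. Asking for a mean of 10 CPM or more left 0 kinesins lower and 0 higher, since Kif7 and Kifc3 lie under that mean. At a 2-fold limit 0 were higher, against 0.669% of all measured genes, and at 1.2-fold 3 of 30 were (Kif13b, Kif24 and Kifc3), against 6.19%. Among genes with 1 curated RefSeq transcript, an alternative chosen after seeing the data, 0 were lower and 0 higher, since Kif7 has 2 and Kifc3 has 9, and the transport median turned to -0.01. Per kilobase of coding length, the mitotic median was 29.8 CPM in the library labelled CREB KO and 26.8 in the wildtype library, and the transport median 7.87 against 7.74. Without Kifc1 and Kifc5b, also chosen after seeing the data, the mitotic median was -0.12.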
